A study of Mus musculus with 6 samples.

Results

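The effectors of the Hippo pathway and their classical target genes were followed in the livers of mice with a deletion in Vps15, the regulatory subunit of the class 3 phosphoinositide 3-kinase. The 10 genes, chosen by symbol among the 56305 genes of the expression table, were the transcriptional co-activators Yap1 and Wwtr1 (encoding TAZ), the DNA-binding partners Tead1, Tead2 and Tead4, and the genes Ctgf, Cyr61, Ankrd1, Amotl2 and Axl, which are widely used as readouts of YAP and TAZ activity. Ctgf and Cyr61 are listed under their present symbols, Ccn2 and Ccn1. All 10 genes were found and all 10 passed the filter on low values, which asks for 20 or more normalized counts in 3 or more of the 6 livers. Tead4 and Ankrd1 reached 20 in no WT liver and Tead2 in 2 of them. These genes therefore passed only with the Vps15LKO livers, where they are high.

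Vps15LKO mice carry floxed Vps15 alleles and the AlbCre transgene (AlbCre+;Vps15 f/f), in which the albumin promoter drives Cre recombinase, so that deletion is directed to hepatocytes and, since this promoter is active in their fetal precursors, may reach bile duct cells too. Polyadenylated RNA was sequenced from whole livers of 3 WT and 3 Vps15LKO mice, with 1 library per liver. The paper's methods give male animals, 5 weeks of age, with food ad libitum, and the livers were taken at ZT6, in the light phase. The floxed and Cre status of the WT mice is not given in the sources used here. Because the measurements are of bulk tissue, fewer cells of a type and less RNA per cell cannot be told apart.

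In the Hippo pathway, the kinases MST1 and MST2 (genes Stk4 and Stk3) activate the kinases LATS1 and LATS2, which phosphorylate YAP and TAZ and so keep them out of the nucleus. YAP and TAZ do not bind DNA themselves and act on promoters and enhancers through the TEAD proteins. In liver the pathway is known for its control of organ size and of the identity of hepatocytes and bile duct cells. YAP and TAZ are regulated mainly as proteins, so the transcript levels given here do not measure their activity.

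TEAD proteins bind the short element GGAATG, or CATTCC on the other strand. In RefSeq promoters of GRCm38.p6, taken from 250 bases before to 50 bases after the start of each transcript, this element was found at least once in 4817 of 32851 promoters (14.7%). The promoter table matched 7 of the 10 genes, and 6 of these 7 (all but Tead2) held the element on either strand. Tead1, Tead4 and Ctgf had no entry. The promoters of Ankrd1, Cyr61, Yap1 and Amotl2 are printed here, since these genes cover the whole range of responses described below, from the largest rise to no call, while every one of them holds the element. Each is written 5′ to 3′ along the strand of its gene, with the element in capitals. They lie on the minus strand at chr19:36119795-36120094 (Ankrd1), chr3:145649936-145650235 (Cyr61) and chr9:8004547-8004846 (Yap1), and on the plus strand at chr9:102717554-102717853 (Amotl2).
Ankrd1: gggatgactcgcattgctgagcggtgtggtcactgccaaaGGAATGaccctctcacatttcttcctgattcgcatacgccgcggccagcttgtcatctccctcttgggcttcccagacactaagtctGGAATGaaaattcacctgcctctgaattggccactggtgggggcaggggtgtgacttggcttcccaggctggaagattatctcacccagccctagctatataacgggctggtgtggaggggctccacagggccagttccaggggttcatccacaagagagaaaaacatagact
Cyr61: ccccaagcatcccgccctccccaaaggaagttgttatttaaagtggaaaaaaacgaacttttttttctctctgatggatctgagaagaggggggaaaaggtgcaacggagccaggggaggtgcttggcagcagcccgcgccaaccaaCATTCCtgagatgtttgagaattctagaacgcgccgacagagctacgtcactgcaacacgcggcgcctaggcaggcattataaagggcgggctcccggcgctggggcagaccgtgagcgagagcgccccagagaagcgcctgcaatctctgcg
Yap1: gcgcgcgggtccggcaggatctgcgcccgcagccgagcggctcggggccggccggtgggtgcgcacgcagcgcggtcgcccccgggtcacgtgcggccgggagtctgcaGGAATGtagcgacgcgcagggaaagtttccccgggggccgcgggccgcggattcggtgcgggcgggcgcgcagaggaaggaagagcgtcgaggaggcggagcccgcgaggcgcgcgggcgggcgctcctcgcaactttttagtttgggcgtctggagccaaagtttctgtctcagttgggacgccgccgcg
Amotl2: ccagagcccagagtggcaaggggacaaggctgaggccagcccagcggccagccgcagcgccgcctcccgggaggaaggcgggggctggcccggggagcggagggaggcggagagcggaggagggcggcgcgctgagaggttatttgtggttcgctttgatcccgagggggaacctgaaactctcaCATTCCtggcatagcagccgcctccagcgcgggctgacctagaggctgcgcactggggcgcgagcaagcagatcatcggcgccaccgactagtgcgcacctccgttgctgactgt
Ankrd1 held 2 copies, the first bases of which lay 210 and 123 bases before the start of the transcript. The single copy lay 103 bases before the start in Cyr61, 141 in Yap1 and 65 in Amotl2. In Axl the element began 233 bases before the start. Wwtr1 had 2 overlapping promoter entries that share the same copy, 136 or 170 bases before their starts. A match is a description of these letters and says nothing of whether TEAD proteins were bound in these livers.

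Sequencing depth was similar in the 6 libraries, with 16137093 to 18110223 reads on genes. The authors' DESeq2 size factors were nevertheless 0.742 to 0.801 in WT and 1.23 to 1.41 in Vps15LKO libraries, so that a WT read stood for 1.25 to 1.35 normalized counts, and a Vps15LKO read for 0.707 to 0.810. Genotypes were compared with limma on log2(normalized count + 1), a scale that understates the change of low genes, and calls needed a Benjamini-Hochberg adjusted p under 0.05 together with a fold of 1.2 or more. In this fit 66.5% of the 15430 tested genes were called, 33.5% higher and 33.0% lower in Vps15LKO liver. If all libraries are instead scaled to the same total of reads, the median log2 fold change of all genes moves from -0.02 to 0.70, with 66.7% of genes called higher and 11.1% lower. For the genes of the pathway, falls and changes that were not called are therefore given under both scalings. Pik3r4, the gene of Vps15, was read at 508, 573 and 460 normalized counts in WT replicates 1 to 3, against 341, 362 and 355 in Vps15LKO replicates 1 to 3, the order used for all values that follow. The log2 fold change was -0.54 ± 0.11 (SE, adjusted p = 0.002072), against 0.19 with total-read scaling. These values do not by themselves show the deletion, since the fall is modest and is lost with total-read scaling. Recombination of the floxed locus is known to leave a transcript that encodes a truncated Vps15, and a count over the whole gene includes it.

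Of the 10 genes, 8 were called higher in Vps15LKO liver (background 33.5%), 1 was called lower (background 33.0%) and 1 was not called. The 8 genes were Wwtr1, Tead1, Tead2, Tead4, Ctgf, Cyr61, Ankrd1 and Axl, and the gene called lower was Yap1. The same 8 genes had every Vps15LKO liver above every WT liver, as 36.4% of all tested genes did, and Yap1 had every Vps15LKO liver below every WT liver, as did 36.8% of all genes. The median log2 fold change of the 10 genes was 1.96, beside -0.02 for all tested genes. With total-read scaling the median was 2.69 beside 0.70, and all 10 genes were called higher (background 66.7%).

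**Figure D1:**
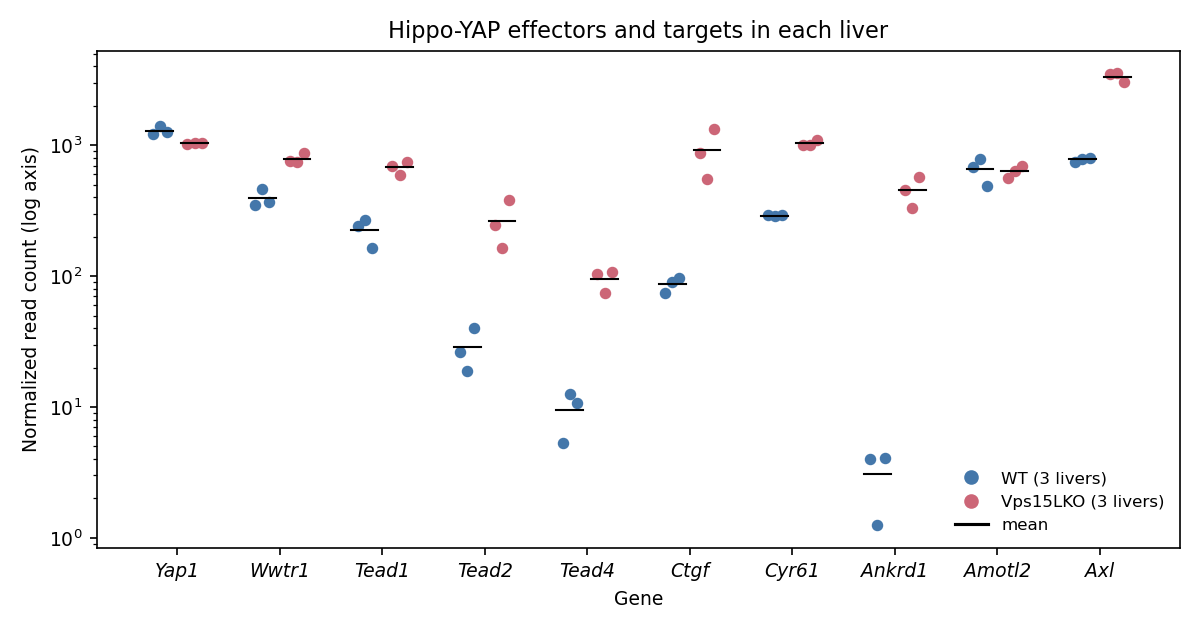
Normalized read count (log axis) of the 10 genes in each of the 3 WT and 3 Vps15LKO livers, 1 point per liver, with the mean as a line. Ankrd1 ranges from 1.25 to 4.04 in the WT group and from 332 to 573 in the Vps15LKO group, whereas the values of Amotl2 overlap between genotypes.

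The co-activator genes moved apart. Yap1 (chr9:7931999-8004596, minus strand) stood at 1209, 1399 and 1262 normalized counts in WT, against 1018, 1049 and 1040 in Vps15LKO livers. All Vps15LKO livers lay below all WT livers, and they differed among themselves by only 1.03-fold. Yap1 transcript was lower by a log2 fold change of -0.31 ± 0.089 (SE, limma, adjusted p = 0.0125). This call depended on the scaling and on single livers. The log2 fold change was 0.41 with total-read scaling (adjusted p = 0.00511), -0.19 with upper-quartile scaling (adjusted p = 0.0874) and -0.05 after quantile normalization (adjusted p = 0.619). Without WT replicate 2 it was -0.25, under the fold threshold, and without Vps15LKO replicate 1 it was -0.30 with an adjusted p of 0.0537.

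Wwtr1 (chr3:57455649-57575910, minus strand), the gene of the YAP paralogue TAZ, rose instead. WT livers held 350.1, 463 and 368 normalized counts of it, and Vps15LKO livers held 751, 745 and 872. The lowest Vps15LKO liver was thus above the highest WT liver. The log2 fold change was 1.01 ± 0.13 (SE, adjusted p = 0.0001626), and 1.73 with total-read scaling.

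The ratio of these genes within a library does not depend on scaling. Per kilobase of merged exons, the Wwtr1 to Yap1 ratio was 0.561, 0.642 and 0.565 in WT, against 1.43, 1.38 and 1.62 in Vps15LKO livers. The genotypes did not overlap. On this scale every WT liver had more Yap1 than Wwtr1 and every Vps15LKO liver the reverse, but which gene leads in Vps15LKO depends on the division by length, since without it the ratios were 0.738, 0.710 and 0.838 there, all below 1. The mean ratio was 0.589 ± 0.0455 in WT and 1.48 ± 0.131 in Vps15LKO (SD, n = 3 livers each, exact permutation test, two-sided, p = 0.1, the smallest value 3 against 3 livers allow).

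Among the DNA-binding partners, the 3 Tead genes chosen rose and the remaining family gene, Tead3, did not. Tead1 (chr7:112679318-112906807, plus strand) had 240, 267 and 164.5 normalized counts in WT and 699, 588 and 741 in Vps15LKO livers. The genotypes did not overlap, and the log2 fold change was 1.61 ± 0.18 (SE, limma, adjusted p = 8.617e-05). Tead2 (chr7:45215753-45233644, plus strand) had 26.5, 18.7 and 40.4 normalized counts in WT and 247, 164.5 and 384 in Vps15LKO livers. It was low in every WT liver and varied 2.34-fold among the Vps15LKO livers, with a log2 fold change of 3.15 ± 0.35 (SE, adjusted p = 7.823e-05).

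Tead4 (chr6:128224288-128300823, minus strand) was the scarcest of the family, with 5.30, 12.5 and 10.8 normalized counts in WT livers, which rest on 4, 10 and 8 reads. In the Vps15LKO livers it had 104, 74.55 and 107. Its log2 fold change of 3.24 ± 0.33 (SE, adjusted p = 4.764e-05) rests on few WT reads. Tead3 (chr17:28331671-28350817, minus strand), which was the most abundant Tead transcript of WT liver per kilobase, had 388.5, 365 and 284 normalized counts in WT and 214, 235 and 253 in Vps15LKO livers. It was lower without overlap, at a log2 fold change of -0.55 ± 0.14 (SE, adjusted p = 0.007485), but 0.17 with total-read scaling, where it was not called.

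As shares of the summed reads per kilobase of the 4 Tead genes, which again do not depend on scaling, Tead3 made up 67.0% ± 2.92 in WT but 21.4% ± 4.17 in Vps15LKO (SD, n = 3 livers each). Tead2 held 8.11% ± 4.18 in WT and 32.3% ± 6.99 in Vps15LKO. Tead1 held 21.3% ± 2.91 and 30.3% ± 2.90, and Tead4 held 3.53% ± 1.52 and 15.9% ± 1.51. For each of the 4 shares the genotypes did not overlap, and the exact permutation p was 0.1, again the smallest possible. The sum of the 4 genes was 76.6 normalized counts per kilobase in WT and 166.5 in Vps15LKO liver, a 2.17-fold difference, or 3.64-fold with total-read scaling. Tead3 led the family in every WT liver, and Tead1 or Tead2 led it in every Vps15LKO liver. Without division by length Tead3 still led in WT, and Tead1 led every Vps15LKO liver with 49.9% to 55.4%.

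**Figure D2:**
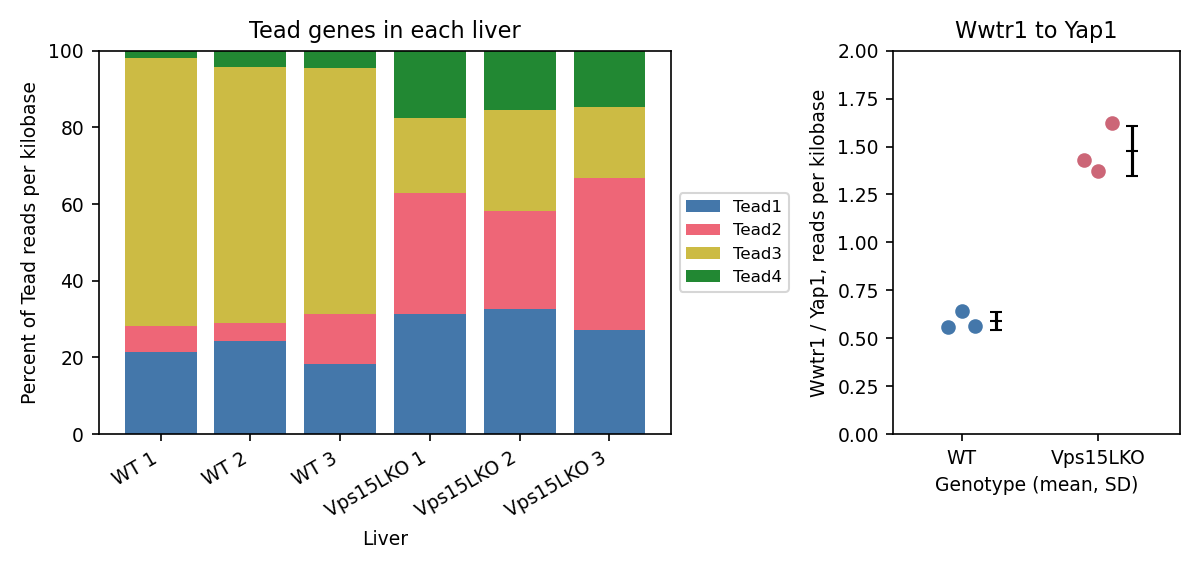
Left, percent of the reads per kilobase of the 4 Tead genes held by each of them, 1 bar per liver. Right, Wwtr1 to Yap1 ratio of reads per kilobase in each liver, with mean and SD. The Tead3 share falls from 64.3% to 70.1% in WT livers to 18.7% to 26.2% in Vps15LKO livers, and the ratio is 0.642 or less in WT and 1.38 or more in Vps15LKO livers.

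Ctgf and Cyr61 encode secreted matricellular proteins of the CCN family and are the most commonly used readouts of YAP and TAZ. Ctgf (Ccn2, chr10:24595442-24598683, plus strand) went from 74.3, 89.9 and 97.1 normalized counts in WT to 865, 555 and 1337 in Vps15LKO livers. The lowest Vps15LKO liver was far above the highest WT liver, while the Vps15LKO livers differed 2.41-fold among themselves. The log2 fold change was 3.30 ± 0.28 (SE, limma, adjusted p = 1.841e-05). The exons of Ctgf share 665 bases, 23.2% of their length, with Gm15270 on the opposite strand. Gm15270 had 40, 51 and 39 reads in WT and 661, 426 and 1082 in Vps15LKO livers, and whether reads were counted by strand is not given in the sources used here. How much of either count belongs to the other gene was not tested.

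Cyr61 (Ccn1, chr3:145646976-145649981, minus strand) was the least variable of the 10 genes in WT liver. It had 292, 288.5 and 291 normalized counts in WT and 999.6, 1002 and 1093 in Vps15LKO livers. The values clustered tightly within each genotype, and the log2 fold change was 1.82 ± 0.086 (SE, adjusted p = 1.157e-06).

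Ankrd1 (chr19:36111961-36120099, minus strand) encodes an ankyrin repeat protein best known from muscle, and its gene is a sensitive target of YAP and TEAD. It had 3, 1 and 3 reads in the WT livers and 597, 410 and 810 reads in the Vps15LKO livers, which correspond to 3.98, 1.25 and 4.04 and to 456, 332 and 573 normalized counts. Ankrd1 was nearly undetected in WT liver and was readily measured in every Vps15LKO liver. Scaled for library, the ratio of the summed reads was 150.6, with an exact binomial 95% interval of 73.0 to 375 that covers counting error only. The fitted log2 fold change, 6.85 ± 0.36 (SE, adjusted p = 1.762e-06), depends on the pseudocount for so low a gene and ran from 5.12 to 7.47 over the other settings that kept all libraries.

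Axl (chr7:25757273-25788705, minus strand) encodes a receptor tyrosine kinase for the ligand Gas6. Its counts were 748, 786 and 802 in WT livers and 3473, 3543 and 3020 in Vps15LKO livers. It was the most abundant of the 10 transcripts per kilobase in both genotypes and rose without overlap, by a log2 fold change of 2.10 ± 0.095 (SE, adjusted p = 9.761e-07). Axl is also made by macrophages and stromal cells, whose markers are given below.

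Amotl2 (chr9:102716672-102733418, plus strand) encodes an angiomotin-like scaffold that binds YAP and holds it in the cytoplasm, and the gene is itself a YAP target. It had 681.5, 791 and 489 normalized counts in WT livers and 562, 639 and 698 in Vps15LKO livers. The genotypes overlapped, and the log2 fold change was -0.02 ± 0.17 (SE, adjusted p = 0.9096), with a 95% interval from -0.42 to 0.37. It was 0.70 with total-read scaling (adjusted p = 0.00394), equal to the median of all genes under that scaling.

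**Figure D3:**
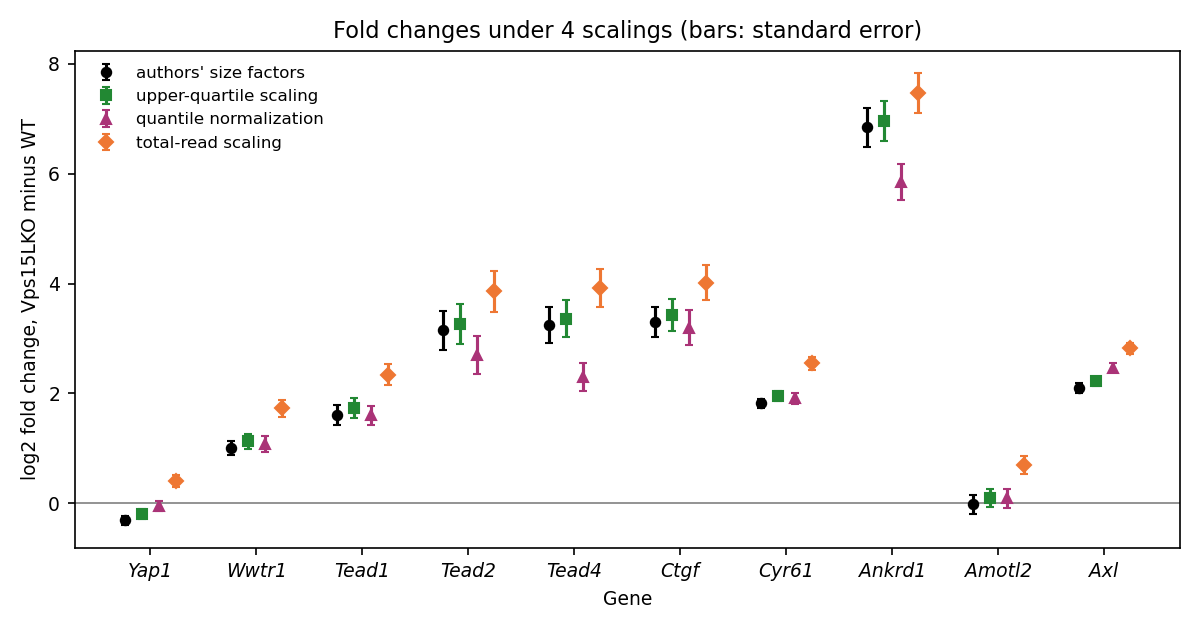
Fitted log2 fold change (Vps15LKO minus WT) of the 10 genes under 4 scalings, with standard error bars. The 8 genes called higher stay above 0 under each scaling, whereas Yap1 runs from -0.31 to 0.41 and Amotl2 from -0.02 to 0.70.

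The levels of different genes were compared per kilobase of merged exons. In WT liver the order was Axl (155 normalized counts per kilobase), Cyr61 (144), Yap1 (139), Amotl2 (104), Wwtr1 (82.4), Ctgf (30.4), Tead1 (16.5), Tead2 (5.97), Tead4 (2.65) and Ankrd1 (1.07). The values of Cyr61 and Yap1 overlapped between livers, as did those of Axl and Yap1 and of Amotl2 and Wwtr1. In Vps15LKO liver the order was Axl (665), Cyr61 (511), Ctgf (321), Wwtr1 (165), Ankrd1 (157), Yap1 (112), Amotl2 (101), Tead2 (55.4), Tead1 (49.8) and Tead4 (26.4). Here Wwtr1 and Ankrd1 overlapped, as did Ctgf and Ankrd1, Yap1 and Amotl2, and Tead2 and Tead1. Ankrd1, last in WT liver, was above Yap1 in each Vps15LKO liver.

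Spread among the Vps15LKO livers differed between the genes. The highest liver exceeded the lowest 2.41-fold for Ctgf, 2.34-fold for Tead2 and 1.72-fold for Ankrd1, against 1.03-fold for Yap1 and 1.09-fold for Cyr61. For Wwtr1, Tead1, Tead2, Tead4, Ctgf and Ankrd1, Vps15LKO replicate 3 was the highest and replicate 2 the lowest. These are 6 of the 10 genes, while 20.1% of all tested genes had that order. With total-read scaling it was 8 of 10 genes beside 41.9% of all genes. All 7 tested bile duct cell markers had this same order, and all 8 hepatocyte markers had the opposite one, which 28.3% of all tested genes had. The order of the bile duct cell markers was found in 0 of 10 stellate cell and fibroblast, 0 of 10 endothelial and 2 of 10 macrophage markers, and the opposite order in 3, 7 and 4 of 10. With total-read scaling the bile duct cell markers stayed at 7 of 7, while the opposite order held for 6 of 8 hepatocyte markers and 13.6% of all genes. Under that scaling the bile duct order was found in 4 of 10 stellate cell and fibroblast, 3 of 10 endothelial and 3 of 10 macrophage markers. The opposite order was found in 1, 3 and 2 of 10. Of the pathway lists given below, 8 of 24 kinase and scaffold genes and 6 of 16 other targets had the bile duct order. With total-read scaling it was 18 of 24 and 10 of 16. The order was looked at after the values had been seen, and the part of cell composition in it was not tested.

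**Figure D4:**
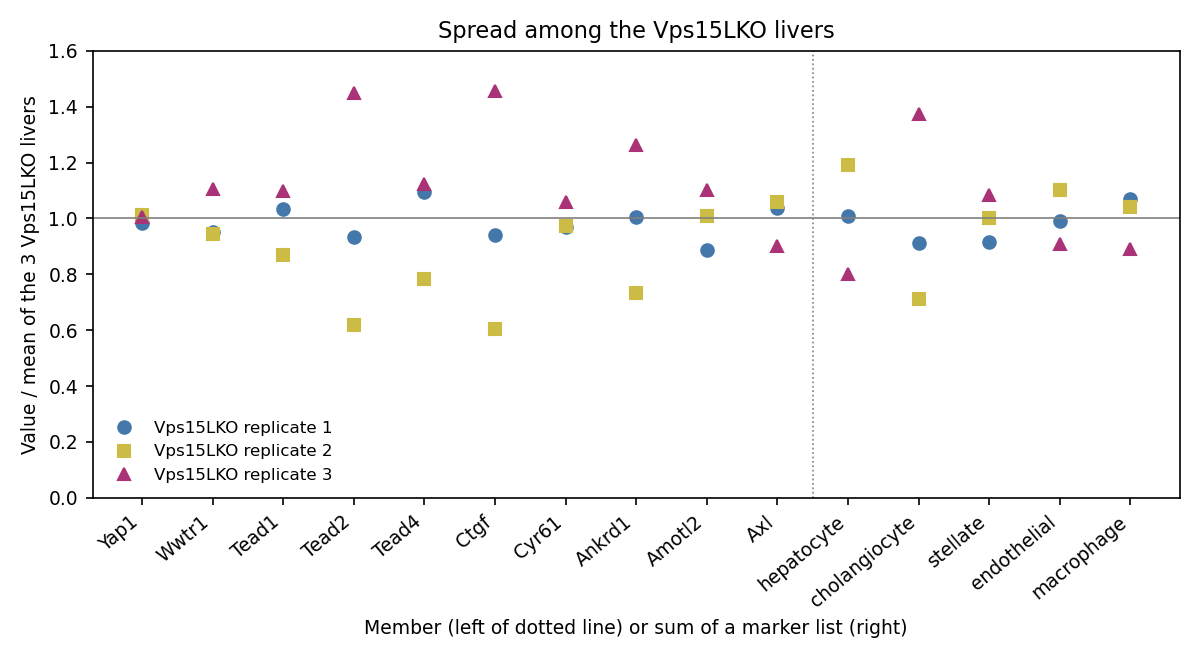
Value in each Vps15LKO liver divided by the mean of the 3 Vps15LKO livers, for the 10 genes and for the summed normalized counts of 5 lists of cell type markers. Ctgf, Tead2 and the cholangiocyte sum, which is mostly Spp1, spread widely with replicate 3 at the top. The hepatocyte sum has replicate 3 at the bottom.

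Markers of liver cell types moved between the genotypes too, and their calls are to be read beside 33.5% of all tested genes called higher and 33.0% called lower. The summed normalized counts of 8 hepatocyte markers ranged from 3018508 to 3346449 in WT livers but from 997337 to 1480587 in Vps15LKO livers. All 8 markers were lower without overlap, as 36.8% of all tested genes were, and 6 of 8 were called lower. Albumin remained the leading hepatocyte marker in every liver. Of 8 cholangiocyte markers, 7 were tested and all 7 were called higher. Cftr reached 20 normalized counts in no WT liver, Krt7 in 1 and Epcam in 2, so these passed the filter only with the Vps15LKO livers. The sums were 1269 to 1419 in WT and 12343 to 23813 in Vps15LKO livers. Spp1 made up most of the Vps15LKO sums, with 13400, 10400 and 20500 normalized counts there against 562, 493 and 598.5 in WT livers. All 10 markers of stellate cells and fibroblasts were called higher, with sums of 7095 to 7597 and 30561 to 36135. Of 10 macrophage markers, 8 were called higher and none lower, with sums of 8664 to 9674 and 25177 to 30169. Clec4f (log2 fold change 0.40) and Timd4 (-0.62) were not called. Timd4 was nevertheless lower in every Vps15LKO liver than in any WT liver, though its fold change was 0.10 with total-read scaling. Endothelial markers lay near these background shares, with 4 of 10 called higher and 5 lower and sums of 10730 to 11901 and 8860 to 10738. With total-read scaling, where 66.7% of all genes were called higher and 11.1% lower, 6 of 10 endothelial markers were called higher and none lower, and 3 of the 5 called lower had a log2 fold change above 0. Under that scaling 6 of 8 hepatocyte markers were still called lower, while 7 of 7 cholangiocyte, 10 of 10 stellate cell and fibroblast and 9 of 10 macrophage markers were called higher. Among the markers tested none was at 0 in all livers. The part of these shifts in the values of the 10 genes was not tested.

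Upstream of YAP, 24 kinases, scaffolds and polarity genes of the pathway were all tested, and 11 were called higher, 6 lower and 7 not called (background 33.5% and 33.0%). Their median log2 fold change was 0.33. With total-read scaling 20 of 24 were called higher and none lower (background 66.7% and 11.1%), with a median of 1.05 beside 0.70 for all genes. The 3 largest rises were those of Ptpn14, Map4k4 and Ajuba. Ptpn14, a phosphatase that binds YAP and is also listed among its targets, had 45.1, 72.5 and 58.0 normalized counts in WT and 1225, 812 and 1204 in Vps15LKO livers, a log2 fold change of 4.18 ± 0.21 (SE, limma, adjusted p = 1.537e-06). Map4k4, a kinase that can activate LATS beside MST1 and MST2, rose from 273, 270 and 259 to 1262, 1159 and 1336, by 2.22 ± 0.091 on the log2 scale (adjusted p = 6.643e-07). Ajuba, a LIM protein that restrains LATS, had 106, 154 and 262 in WT and 716, 755 and 769 in Vps15LKO livers. Its log2 fold change was 2.19 ± 0.27 (SE, adjusted p = 0.0001477). Each of these 3 rises was called under every setting tried.

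The 3 largest falls in this list were smaller and depended on the scaling. Wwc1, encoding the LATS activator KIBRA, had 1908, 2071 and 1525 normalized counts in WT and 1152, 1136 and 1083 in Vps15LKO livers (log2 fold change -0.70 ± 0.12 SE, adjusted p = 0.0009556). Nf2, encoding the LATS recruiter merlin, changed by -0.53 (adjusted p = 0.003614) and the kinase Taok3 by -0.48 (adjusted p = 0.001303). With total-read scaling none of the 3 was called and their fold changes were 0.03, 0.20 and 0.25. Taok3 also lost its call after quantile normalization, at -0.24 and a fold under 1.2. Among the core kinases, Stk3 (log2 fold change -0.03), Stk4 (0.25, under the fold threshold) and Lats2 (0.14) were not called, and Lats1 was called lower at -0.35 (adjusted p = 0.0238). With total-read scaling Stk3 (0.69), Stk4 (0.97) and Lats2 (0.87) were all called higher, beside the median of 0.70 for all genes. The Lats1 call was lost without WT replicate 2 (-0.31), WT replicate 3 (-0.28), Vps15LKO replicate 2 (-0.31) or Vps15LKO replicate 3 (-0.34), with upper-quartile scaling (-0.22) and after quantile normalization (-0.25), and with total-read scaling Lats1 was called higher at 0.38 (adjusted p = 0.03139). Lats2 shares 42.4% of its exon length with Gm49361 on the same strand, so its count is uncertain.

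Of 5 further TEAD partners, Tead3 and the co-factors Vgll1 to Vgll4, only Tead3 and Vgll4 were tested. Vgll4, which competes with YAP for TEAD, had 423, 493 and 404 normalized counts in WT and 440, 461 and 437 in Vps15LKO livers, overlapping between genotypes with a log2 fold change of 0.02. With total-read scaling it was called higher at 0.75, close to the median of all genes. No read was counted for Vgll1 or Vgll2 in any liver. Vgll3 fell below the filter, with 6.63, 8.74 and 6.74 normalized counts in WT and 14.5, 24.3 and 34.7 in Vps15LKO livers.

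Of 17 further genes from a widely used YAP and TAZ target signature of human cancers, 16 were tested, of which 13 were called higher, 1 lower and 2 not called (background 33.5% and 33.0%). Their median log2 fold change was 1.07, or 1.79 with total-read scaling. Fjx1 passed the filter only through the Vps15LKO livers. The 3 largest fitted rises were those of Fjx1, Ptpn14 and Tgfb2, but the place of Fjx1 depends on the pseudocount and the normalization. At a pseudocount of 10 the log2 fold change was 2.66 for Fjx1, 3.99 for Ptpn14 and 3.62 for Tgfb2, and after quantile normalization that of Fjx1 was 2.98. Fjx1, encoding a Golgi kinase of the Fat and Dachsous system, had only 3, 2 and 1 reads in WT, against 77, 62 and 156 in Vps15LKO livers. The ratio scaled for library was 28.5, with an exact binomial 95% interval of 12.95 to 78.4 for counting error only. Tgfb2, encoding a ligand of the TGF-β family, had 21.2, 24.98 and 27.0 normalized counts in WT and 436, 322.5 and 492 in Vps15LKO livers, a log2 fold change of 4.03 (adjusted p = 1.157e-06). Myof, Nt5e and Ccdc80, named here after their values were seen, had log2 fold changes of 3.65, 3.19 and 2.53 in the same direction.

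The target called lower was Nuak2, a kinase of the AMPK-related family. It had 221, 277 and 228 normalized counts in WT and 191, 199 and 163 in Vps15LKO livers, a log2 fold change of -0.39 (limma, adjusted p = 0.03149). This call was lost without WT replicate 2 (-0.29), Vps15LKO replicate 1 (-0.42, adjusted p = 0.06532) or Vps15LKO replicate 3 (-0.30), and with upper-quartile scaling (-0.27), and the fold change was 0.34 with total-read scaling. Dock5, at -0.36, and Lats2 were not called. With total-read scaling Dock5 was called higher at 0.36, below the median of all genes. Foxf2 was left untested, with 1 read in 1 Vps15LKO liver and none elsewhere. Lats2 and Ptpn14 stand in both lists, so the lists are not separate sets.

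**Figure D5:**
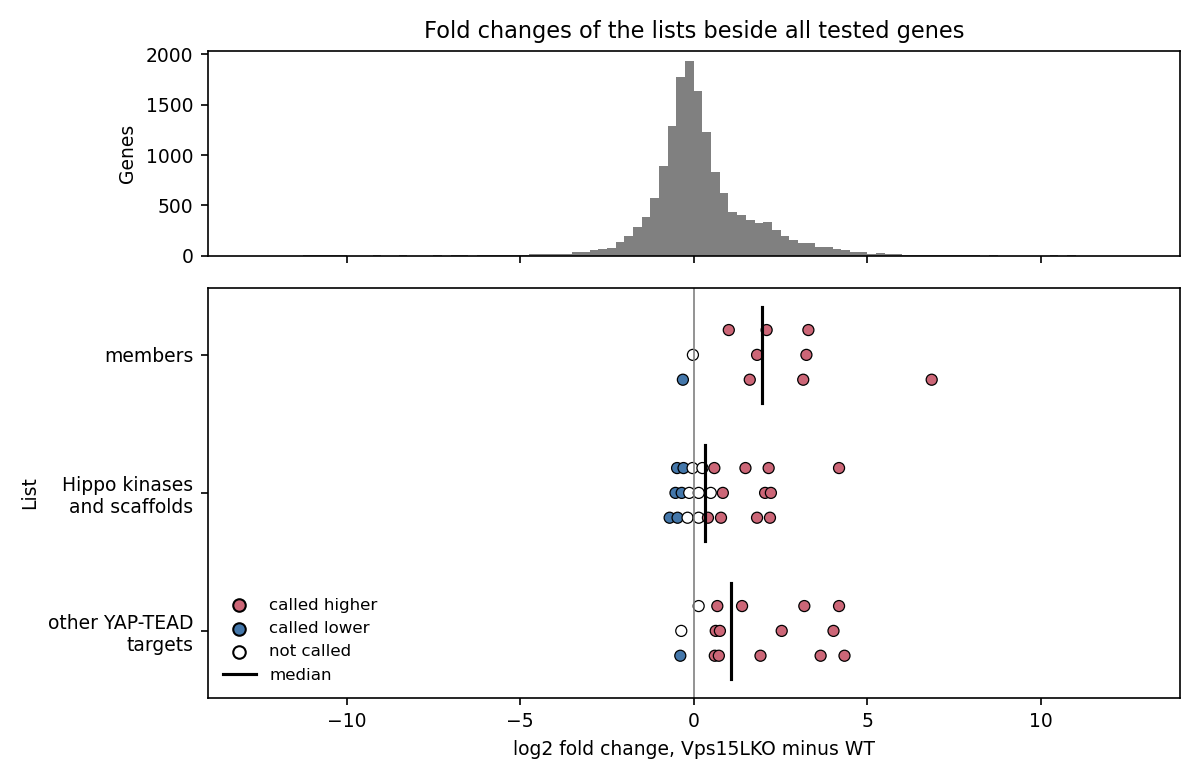
Top, number of all 15430 tested genes by log2 fold change (Vps15LKO minus WT). Below, the 10 members of the YAP group, 24 Hippo kinases and scaffolds and 16 other tested YAP-TEAD targets, 1 point per gene coloured by its call, with medians of 1.96, 0.33 and 1.07 as lines.

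The genes whose log2 levels followed Yap1 most closely over the 6 livers were Zfp759 (Pearson r = 0.997), Dclre1a (0.997), Akap17b (0.996), Dcaf5 (0.994) and Gm45871 (0.993). In all, 368 of 15429 other tested genes had an r of at least 0.95 with Yap1. The 6 points share library, scaling and genotype, and these values, computed with the authors' size factors only, are a description. Each of the 5 had its highest count in WT replicate 2, as Yap1 did. Zfp759, for example, had 55.7, 87.4 and 64.7 normalized counts in WT and 34.4, 34.8 and 34.0 in Vps15LKO livers. Dcaf5 had 819, 978 and 903 in WT and 647, 681 and 668 in Vps15LKO livers.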

How the data were processed

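RNA-Seq libraries from the livers of 3 WT and 3 Vps15LKO mice were grouped by their genotype labels. The labels do not say how the livers of a genotype relate to each other, and p-values measure the spread between these libraries. The authors used SOAPnuke for read filtering, HISAT2 for mapping to GRCm38, featureCounts for counting and DESeq2 for normalization, in versions and with strand settings not given in the sources used here. Each deposited value is thus a signal: the reads of a gene over the size factor of its library. In every library 100% of values above 0 were whole multiples of 1 read (tolerance 0.001 read), so whole reads were recovered for count tests, in which edgeR called 5383 genes higher and 4822 lower. No column was left unused.

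Symbols matched 55141 of 56305 genes, and positions and exon lengths come from GENCODE M21. limma 3.58.1 (R 4.3.3, lmFit and eBayes with a trend) compared log2(normalized count + 1) for genes that reached 20 normalized counts in 3 or more of 6 livers, with Benjamini-Hochberg adjustment over all 15430 genes. Named genes are the 10 members, Tead3, Pik3r4, the 3 largest called rises and falls of the kinase and target lists, and the 5 genes most correlated with Yap1. Others were named for their role or after their values were seen. The members and lists were chosen with earlier results of these data known. Ratios were compared with exact permutation tests (scipy 1.17.1), and intervals from reads are exact Clopper-Pearson binomial intervals (95%). On simulated counts (15224 genes), 187 of 196 changed genes (95.4%) were recovered, with 9 false calls. In the livers 66.5% of the tested genes were called, and recovery and false calls at such a share were not tested. Chi-square per gene between libraries of 1 genotype was 14.6 to 40.8, which marks none as a duplicate. Alternatives were other pseudocounts, filters, scalings, edgeR 4.0.16, DESeq2 1.42.0, limma voom, limma without a trend, a fold threshold of 2, a replicate block and each liver left out. Promoter sequences are from RefSeq. Python 3.11.15 served for tables (pandas 2.3.3, numpy 2.4.6) and plots (matplotlib 3.10.9).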

Additional observations from a re-analysis of the deposited data

How the results depend on the processing

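Of 187 fold changes of the 10 genes under alternatives, 174 kept their direction and their side of the threshold, 4 lost a call and 9 changed sign. For the 8 genes called higher, none lost its call or changed direction wherever it was tested. With total-read scaling 10299 genes were called higher and 1712 lower, 0 members were lower, 20 kinase and scaffold genes were higher and 0 lower, 1 TEAD partner, Vgll4, was higher and 0 lower, 0 targets were lower, Yap1 was at 0.41 and Amotl2 at 0.70. With upper-quartile scaling 0 members and 0 targets were lower, Yap1 was at -0.19 and Amotl2 at 0.10. After quantile normalization 0 members and 3 kinase and scaffold genes were lower, Yap1 was at -0.05 and Amotl2 at 0.09. Amotl2 was at 0.02 with TMM scaling and with limma voom. At a fold threshold of 2, by its construction, 3228 genes were higher and 1957 lower, 0 members, 0 kinase and scaffold genes, 0 TEAD partners and 0 targets were lower, and 7 kinase and scaffold genes and 8 targets were higher. Requiring 20 counts in every liver left 7 members, 5 of them higher. With no filter 1 TEAD partner, Vgll3, was higher. With each liver left out in turn, 0 to 1 members and 0 to 1 targets were called lower, Yap1 ran from -0.36 to -0.25 and Amotl2 from -0.22 to 0.13. The cause of these changes was not tested.

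Deviations from the genotype means correlated at -0.01, -0.01 and 0.05 between livers of the same replicate number. WT replicates 1 and 2 correlated best with Vps15LKO livers of another number, and WT replicate 3 with the Vps15LKO liver of the same number. These values cannot show whether livers shared a litter or a batch, which the labels do not give. With the replicate number as a block, 2 targets in place of 1 were called lower, and Yap1 kept its call at -0.31 (adjusted p = 0.0216, limma). Without division by exon length, alternatives added after the data were seen, the Wwtr1 to Yap1 ratio was 0.304 in WT and 0.762 in Vps15LKO, below 1 in both genotypes, and the shares in WT and Vps15LKO were 36.5% and 53.5% for Tead1, 4.98% and 20.3% for Tead2, 56.9% and 18.7% for Tead3 and 1.61% and 7.48% for Tead4. Few reads in WT liver limit the fold changes of Ankrd1, Fjx1 and Tead4.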
